A study of Mus musculus with 2 samples.

Results

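Expression of 10 genes for enzymes and adaptors that carry the signal of the B cell antigen receptor downstream of its first kinases was compared between transgenic and non-transgenic B cells. The genes were Btk, Plcg2, Pik3cd, Pik3ap1, Vav1, Vav2, Prkcb, Ptpn6, Inpp5d and Bank1. Every probe set that the platform's probe table gives to 1 of these symbols alone was taken, without regard to its values. This gave 23 of the 45037 probe sets and 10 of the 18193 named genes on the array. The transgenic B cells came from mice of the diabetes-prone NOD strain carrying a human AIRE transgene driven by an MHC class II promoter. The non-transgenic B cells came from NOD mice without it. In both groups the mice were 8 weeks old, the cells had been selected as B220-positive and free of Thy1 and CD11c, and RNA of 2 mice was put on 1 Affymetrix array. An MHC class II promoter is active in antigen-presenting cells in general, so B cells need not be the only cells that carried the protein in these mice.

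When antigen binds the receptor, Src-family and Syk kinases activate Btk, which in turn activates the phospholipase Plcg2. The lipid and calcium messengers made by Plcg2 switch on protein kinase C beta, the product of Prkcb, and through it NF-kB. In parallel, phosphoinositide 3-kinase makes the membrane lipid that recruits Btk, and Vav proteins carry the signal to the actin cytoskeleton. The phosphatases Ptpn6 and Inpp5d, drawn in by inhibitory receptors, limit the signal. In mature B cells this pathway governs survival, activation and tolerance.

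None of the 10 genes was 2-fold apart between the arrays by the probe set that represents it, and 9 of the 10 lay under the array-wide median ratio. As deposited and after loess this was 8 of 10. Prkcb was lower in each of its 3 probe sets, and single probe sets of Pik3cd and Vav2 came closest to a 2-fold difference, while other probe sets of both genes were near level. Vav1 was the gene above that median, though its other probe set lay under it. As deposited and after loess Pik3ap1 was above it as well. With 1 array per group there is no replicate check and no test, so every ratio describes these 2 arrays. A bulk sample also cannot tell fewer cells of a type apart from less RNA per cell.

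RefSeq upstream sequences were read for all 10 genes, and 4 are shown because they hold a motif of a B lineage transcription factor. Each run is the 250 bases before the annotated start, on the gene's own strand, from build GRCm38.p6. Capitals mark the octamer ATGCAAAT, bound by Oct proteins, or GAGGAAG, the core of the box bound by PU.1.
Prkcb, chr7:122288875-122289124, plus strand: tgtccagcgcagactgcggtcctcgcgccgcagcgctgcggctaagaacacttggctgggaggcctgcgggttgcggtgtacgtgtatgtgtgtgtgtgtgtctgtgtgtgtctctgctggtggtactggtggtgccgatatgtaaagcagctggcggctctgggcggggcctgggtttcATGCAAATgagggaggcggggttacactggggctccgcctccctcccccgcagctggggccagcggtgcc
Inpp5d, chr1:87620062-87620311, plus strand: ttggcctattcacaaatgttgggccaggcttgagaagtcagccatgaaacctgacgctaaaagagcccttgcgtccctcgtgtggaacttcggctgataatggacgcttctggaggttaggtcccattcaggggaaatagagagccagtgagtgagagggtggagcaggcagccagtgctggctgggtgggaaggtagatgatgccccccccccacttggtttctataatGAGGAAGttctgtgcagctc
Vav1, chr17:57278850-57279099, plus strand: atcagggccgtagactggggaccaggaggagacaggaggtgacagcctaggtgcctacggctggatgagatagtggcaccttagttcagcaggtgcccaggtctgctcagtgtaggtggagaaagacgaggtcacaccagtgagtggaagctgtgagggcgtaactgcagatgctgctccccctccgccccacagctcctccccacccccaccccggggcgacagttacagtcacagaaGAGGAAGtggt
Pik3ap1, chr19:41385103-41385352, minus strand: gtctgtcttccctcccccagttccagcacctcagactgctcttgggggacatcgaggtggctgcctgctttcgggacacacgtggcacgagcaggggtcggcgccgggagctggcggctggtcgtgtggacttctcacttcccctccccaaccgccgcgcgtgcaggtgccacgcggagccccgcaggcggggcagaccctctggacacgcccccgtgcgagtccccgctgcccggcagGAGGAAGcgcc

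The octamer lay 70 bases before the start of Prkcb, and it is found on either strand in 1.6% of the 32851 RefSeq windows of this length. GAGGAAG lay 20 bases before the start of Inpp5d and 11 bases before those of Vav1 and Pik3ap1, and 10.6% of all windows hold it. Pik3cd has 3 annotated starts and the other genes 1 each, so the 10 genes have 12 windows. Searched on both strands in the same way, the ETS site CCGGAAGT, which 2.88% of all windows hold, was in none of these 12. Of commoner motifs, the GC box GGGGCGG was upstream of Pik3cd, Plcg2, Ptpn6 and Vav1 (21.0% of all windows), the E-box CAGCTG upstream of Prkcb (13.0%) and TATAAA upstream of Bank1 (12.4%). The only overlap was between the matches of TATAAA on opposite strands in Bank1. These matches describe the letters alone.

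Intensities below are linear values after the medians of the 2 arrays were aligned, and each ratio is the log2 of transgenic over non-transgenic intensity. Probe sets whose larger value was 98.8 (the pooled median) or more counted as above the filter, and values below a floor of 25.1 (the pooled 25th percentile) were raised to it before ratios were formed. Across the 23987 probe sets above the filter the median log2 ratio was 0.15, against -0.03 as deposited, 0.02 with quantile normalization and 0.01 with loess on the mean level. The alignment therefore sets the zero of the scale somewhat below the middle of the expressed probe sets, and each ratio is best read against that median. Arrays correlated with a Pearson r of 0.946 across these probe sets, which are not independent replicates. As a measure of RNA integrity, beta-actin control probes gave a 3′/5′ signal ratio of 1.49 for transgenic RNA and 1.25 for non-transgenic RNA. Gapdh gave 0.775 for transgenic and 0.670 for non-transgenic RNA, and the transferrin receptor, which went the other way, gave 4.20 for transgenic and 4.59 for non-transgenic RNA. Their part in the results was not tested.

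Of the 23 probe sets, 20 lay above the filter, at least 1 for each gene. None of the 20 was 2-fold higher or 2-fold lower, where 4.71% of all probe sets above the filter were 2-fold higher and 4.04% 2-fold lower. As deposited, without the alignment, 0 of the 20 were 2-fold higher and 2 were 2-fold lower, against 2.89% and 6.17% of all. At 1.5-fold, 3 of the 20 were lower and 0 higher, against 10.5% lower and 17.1% higher among all. After quantile normalization 0 were 2-fold higher and 1 lower, against 3.91% and 4.83% of all, and after loess likewise 0 and 1, against 3.91% and 4.82%. With the filter at the 25th percentile all 23 counted, with 0 higher and 1 lower, against 6.35% and 6.52% of all.

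Of the 20 probe sets, 17 had a ratio under the array-wide median and 13 a ratio under 0, where 38.8% of all probe sets above the filter were under 0. Their median log2 ratio was -0.24, which is 0.39 below the array-wide median, with a range from -0.91 to 0.30. The distance from the array-wide median was much the same after quantile normalization (-0.38) and after loess (-0.36). As deposited it was -0.37, but the alignment shifts all ratios above the floor alike, so this value was nearly fixed in advance. By the probe set of highest mean level for each gene, here called the representing probe set, 9 of 10 genes were under the median over genes of 0.19 and 6 were under 0, where 35.1% of all genes were under 0. Several probe sets read the same gene and are not independent.

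**Figure D1:**
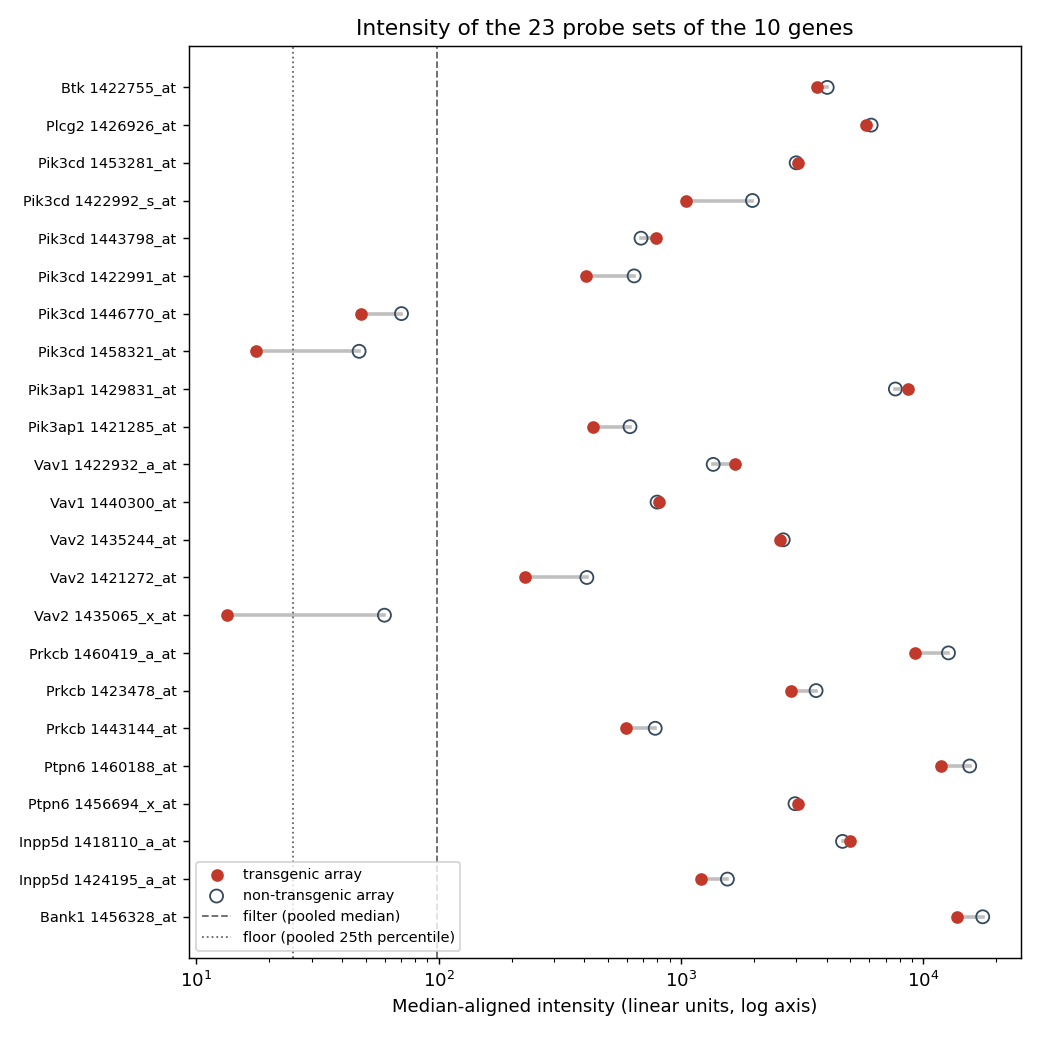
Median-aligned intensity (log axis) of each of the 23 probe sets on the transgenic array (filled red) and the non-transgenic array (open dark blue), joined by a line. The 3 probe sets of Prkcb all have the transgenic point to the left, and 3 probe sets of Pik3cd and Vav2 lie left of the filter line at 98.8.

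Btk, the Tec-family kinase whose loss causes agammaglobulinaemia in humans, had 1 probe set. It was at 3653 on the transgenic array, against 4019.7 on the non-transgenic array, a log2 ratio of -0.14. Relative to the array-wide median over genes this was -0.32. Plcg2, the phospholipase that Btk activates, also had 1 probe set, at 5807 on the transgenic array against 6105 on the non-transgenic array (-0.07, or -0.26 relative to that median). These neighbouring enzymes of the calcium branch were both slightly lower on the transgenic array, by far less than 2-fold.

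Prkcb encodes the protein kinase C isoform that relays the diacylglycerol and calcium signal to NF-kB. Its representing probe set, 1460419_a_at, was at 9299 on the transgenic array against 12729.5 on the non-transgenic array (-0.45). The second, 1423478_at, was at 2859 against 3617 (-0.34). The third, 1443144_at, was at 592 on the transgenic array against 784 on the non-transgenic array (-0.41). All 3 were lower, and their log2 ratios spanned 0.11, where the 1335 genes with 3 probe sets above the filter had a median span of 0.68. Prkcb had the lowest representing ratio of the 10 genes, 0.64 below the array-wide median over genes, and stood at -0.62 as deposited, -0.55 after quantile normalization and -0.53 after loess.

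Bank1, a B cell scaffold that binds the kinase Lyn and the receptor for inositol trisphosphate, was read by 1 probe set. It was at 13775 on the transgenic array, against 17627 on the non-transgenic array (-0.36, and -0.54 relative to the median over genes). Very bright probe sets were lower in general: over all 664 with a mean level of 8000 and over, the median ratio was -0.07. After loess on level Bank1 was at -0.36, where the median over genes was 0.03.

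Pik3cd encodes the catalytic delta subunit of phosphoinositide 3-kinase, the form that leukocytes rely on. It had 6 probe sets, 4 of them above the filter, and these disagreed. The representing one, 1453281_at, was level at 3048 on the transgenic array against 2993 on the non-transgenic array (0.03). Probe set 1443798_at was at 789 against 685 (0.20). By contrast, 1422992_s_at was at 1053 on the transgenic array against 1975 on the non-transgenic array (-0.91), the lowest ratio among the 20, and 4.93% of all probe sets above the filter had a lower one. Its ratio passed 2-fold as deposited (-1.07), after quantile normalization (-1.09) and after loess (-1.12). Probe set 1422991_at was also lower, at 405 on the transgenic array against 642 on the non-transgenic array (-0.66). The log2 ratios of the 4 spanned 1.11, against a median span of 0.84 over the 554 genes with 4 probe sets above the filter. The remaining 2 lay under the filter, 1446770_at at 47.9 on the transgenic array against 70.3 on the non-transgenic array, and 1458321_at at 17.6 against 47.0. On these data no single direction can be given for Pik3cd.

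Pik3ap1 encodes the adaptor that brings phosphoinositide 3-kinase to the receptor complex, and its 2 probe sets also parted. The representing one, 1429831_at, was at 8699.8 on the transgenic array against 7685 on the non-transgenic array (0.18), and 1421285_at was at 436 against 617 (-0.50). The first lay at the array-wide median over genes (-0.01 relative to it) and the second well under it. The span of 0.68 compares with a median of 0.42 over the 2853 genes with 2 probe sets above the filter, of which 10% had a span above 1.13.

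Vav1 and Vav2 encode exchange factors that link the receptor to the actin cytoskeleton, Vav1 mostly in blood cells and Vav2 more widely. Vav1 had its representing probe set, 1422932_a_at, at 1679 on the transgenic array against 1360.5 on the non-transgenic array (0.30). Its other probe set, 1440300_at, was at 811 against 798 (0.02). The first ratio was 0.12 above the array-wide median over genes and was above 0 under each of the 3 other scalings, while the second was under 0 in all 3. Vav2 was level by its representing probe set, 1435244_at, at 2567 on the transgenic array against 2647 on the non-transgenic array (-0.04). Its probe set 1421272_at was at 228 on the transgenic array against 409 on the non-transgenic array (-0.84) and passed 2-fold as deposited (-1.01), though not after quantile normalization (-0.92) or loess (-0.93). The third, 1435065_x_at, lay under the filter on both arrays, at 13.4 on the transgenic array against 59.8 on the non-transgenic array. The transgenic value is under the floor, so no fold is given. The x in its name marks probes that may bind other transcripts.

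**Figure D2:**
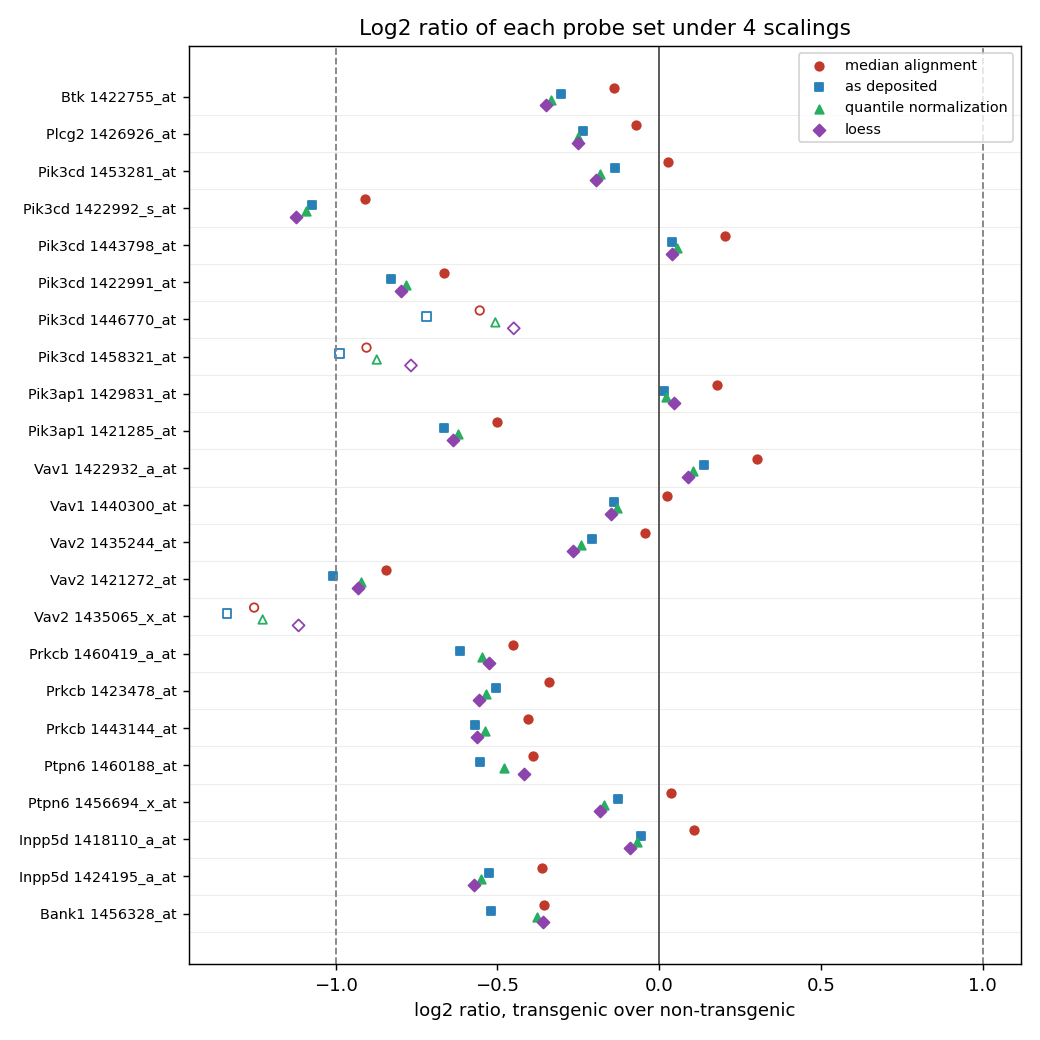
Log2 ratio, transgenic over non-transgenic, of each of the 23 probe sets under median alignment and 3 other scalings; open symbols are probe sets under the filter and dashed lines mark 2-fold. Pik3cd 1422992_s_at passes the lower line in 3 of the 4 scalings, from -1.07 to -1.12, and the 3 Prkcb probe sets lie together between -0.34 and -0.62.

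Among the inhibitory phosphatases, Ptpn6 encodes the tyrosine phosphatase recruited by receptors such as CD22 and Inpp5d the lipid phosphatase recruited by the inhibitory Fc receptor. Ptpn6 was at 11891 on the transgenic array against 15575 on the non-transgenic array by its representing probe set, 1460188_at (-0.39). The second, 1456694_x_at, whose probes may bind other transcripts, was level at 3036 against 2961 (0.04). Inpp5d was at 5009.6 on the transgenic array against 4651 on the non-transgenic array by 1418110_a_at (0.11), and at 1212 against 1557 by 1424195_a_at (-0.36). Both of these phosphatase genes thus had one probe set near level and one lower on the transgenic array. The sign of the representing Inpp5d probe set was not settled, since it stood at -0.06 as deposited, -0.07 after quantile normalization and -0.09 after loess.

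The probe sets that stood lowest shared a feature of their design. Of the 20 probe sets above the filter, 7 were designed on a RefSeq mRNA record and 12 on another sequence record, as the platform's probe table gives them, and 1 has no record there. The 7 had a median log2 ratio of -0.50 and ranged from -0.91 to 0.30, against a median of -0.06 and a range from -0.45 to 0.20 in the 12. Pik3cd, Pik3ap1, Vav1 and Vav2 had both kinds, and in 3 of these 4 the RefSeq-based mean ratio was lower, by 0.90, 0.68 and 0.80 in Pik3cd, Pik3ap1 and Vav2. In Vav1 it was 0.28 higher. Level differed along with the record. On the transgenic array the RefSeq-based probe set was the dimmer in Pik3ap1 (436 against 8699.8) and Vav2 (228 against 2567). In Vav1 it was the brighter (1679 against 811), and in Pik3cd the levels overlapped (1053 and 405 against 3048 and 789). Design record and level cannot be told apart in these genes. Array-wide, the RefSeq-based ratio was lower in 54.5% of 987 such genes, with a median difference of -0.06. This split was looked at after the values were seen, and where the probes lie along each transcript was not analysed here.

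Ratios on these arrays varied with level, so the genes were also set beside probe sets of like level. Of the 20 probe sets, 8 had a mean level from 500 to 2000, with a median ratio of -0.38 where all 8203 probe sets of that range had 0.19. Another 7 lay from 2000 to 8000, with a median of -0.04 against 0.25 over all 3120. The 4 at 8000 and over had a median of -0.37 against -0.07 over all 664. In each of these ranges the median of the 10 genes' probe sets was below that of all probe sets.

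**Figure D3:**
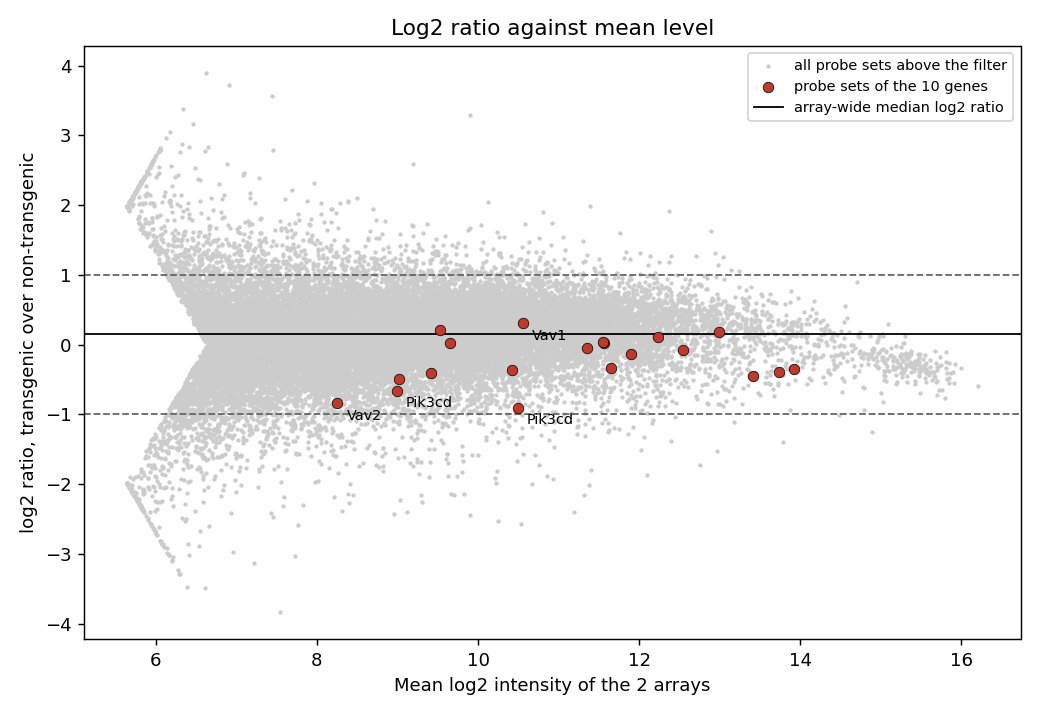
Log2 ratio, transgenic over non-transgenic, against the mean log2 intensity of the 2 arrays for the 23987 probe sets above the filter (grey) and the 20 of the 10 genes (red); the solid line is the array-wide median of 0.15 and dashed lines mark 2-fold. Of the red points 17 lie under the solid line and none beyond the dashed lines.

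Other genes of the pathway were taken from 6 lists, each gene by its representing probe set. Members without a probe set of their own symbol in the platform table were not analysed here, which left 21 of 25 proximal and co-receptor genes, all above the filter. Of these 21, 1 was 2-fold lower and none 2-fold higher, where 3.19% of all genes were 2-fold lower and 4.43% 2-fold higher. The list's median was -0.27, and 20 of its 21 genes lay under the array-wide median of 0.19. By representing probe sets the gene past 2-fold was Cd79a, a signalling chain of the receptor. It was at 19609 on the transgenic array against 46825 on the non-transgenic array (-1.26). The 10 genes had a median of -0.06 on the same scale, between this list and the array-wide median. After loess the gap closed, with medians of -0.26 for the 10 genes and -0.27 for the list. As deposited it remained, with medians of -0.22 for the 10 genes and -0.43 for the list. Other probe sets of the list also passed 2-fold. Those of Ighm above the filter ran from -2.23 to -0.40, where its representing one was at -0.52. Syk, at -0.09, had others at -0.69, -1.29 and -0.78, and Pag1, at 0.17, had others at -2.51, -0.08 and -0.15. Other probe sets of Fyn (0.50), Fgr (0.31) and Lair1 (0.38 and 0.87) were above 0.

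After median alignment the branches further downstream lay nearer the array-wide median. After loess the calcium branch stood at -0.20, close to the 10 genes at -0.26. The phosphoinositide 3-kinase branch stood at -0.03 after loess and the protein kinase C and NF-kB branch at 0.02, where the median over genes was 0.03. Of 17 genes of the phospholipase C and calcium branch none was 2-fold apart, and the median was 0.00. Itpr3, a calcium channel gated by inositol trisphosphate, was at 4649.97 on the transgenic array against 4652 on the non-transgenic array (0.00). Nfatc1, a transcription factor that calcium activates, was at 3085 against 3276 (-0.09). Of 21 genes of the phosphoinositide 3-kinase branch, 1 was 2-fold higher and none 2-fold lower, with a median of 0.13. That gene was Pdpk1, the kinase that activates Akt, at 3316 on the transgenic array against 1599 on the non-transgenic array (1.05). Its second probe set stood at 0.89. Its ratio was under 2-fold in the other 3 scalings, at 0.89 as deposited.

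The 15 genes of the protein kinase C and NF-kB branch had none 2-fold apart and a median of 0.24. Ikbkb, a kinase of the NF-kB inhibitor, was at 7019 on the transgenic array against 8131 on the non-transgenic array (-0.21). The other probe sets of Ikbkb were at -0.16, 0.16, -0.79 and -1.52. Malt1, a protease of the complex that protein kinase C beta switches on, was at 6118 against 6379 (-0.06). The ratio of Prkcb itself, -0.45, lay below the median of this list.

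Of 20 other phosphatases and adaptors that mostly restrain signalling, 2 were 2-fold higher and none 2-fold lower, with a median of 0.28. Spry2, an inhibitor of Ras signalling, was at 578 on the transgenic array against 239 on the non-transgenic array (1.28). Its second probe set, under the filter, stood at -0.38. Ptpn12, a tyrosine phosphatase, was at 2883 on the transgenic array against 1383 on the non-transgenic array (1.06), and at 0.90 as deposited. The other probe sets of Ptpn12 were at 0.62, 0.32 and 0.93, all under 2-fold. As deposited, after quantile normalization and after loess the counts were 1 higher, Spry2, and 1 lower. The lower gene was Sh3bp2, at 799 on the transgenic array against 1493 on the non-transgenic array (-0.90), with -1.07 as deposited, -1.08 after quantile normalization and -1.10 after loess; it is named after its values were seen. The list's median lay above the array-wide median, where the representing ratio of Ptpn6 was -0.39.

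Close relatives of the 10 genes, such as the phospholipase Plcg1 and the phosphatase Ptpn11, give a further setting, with 9 genes above the filter. None was 2-fold apart, the median was 0.34 and 4 of the 9 lay under the array-wide median. Ptpn11, the relative of Ptpn6, was at 2531 on the transgenic array against 2005 on the non-transgenic array (0.34), but one of its other probe sets was at -1.37. Tec, the relative of Btk, was at 1678 against 2004 (-0.26). As the list holds few genes and overlaps the branch lists, it is given as a description.

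**Figure D4:**
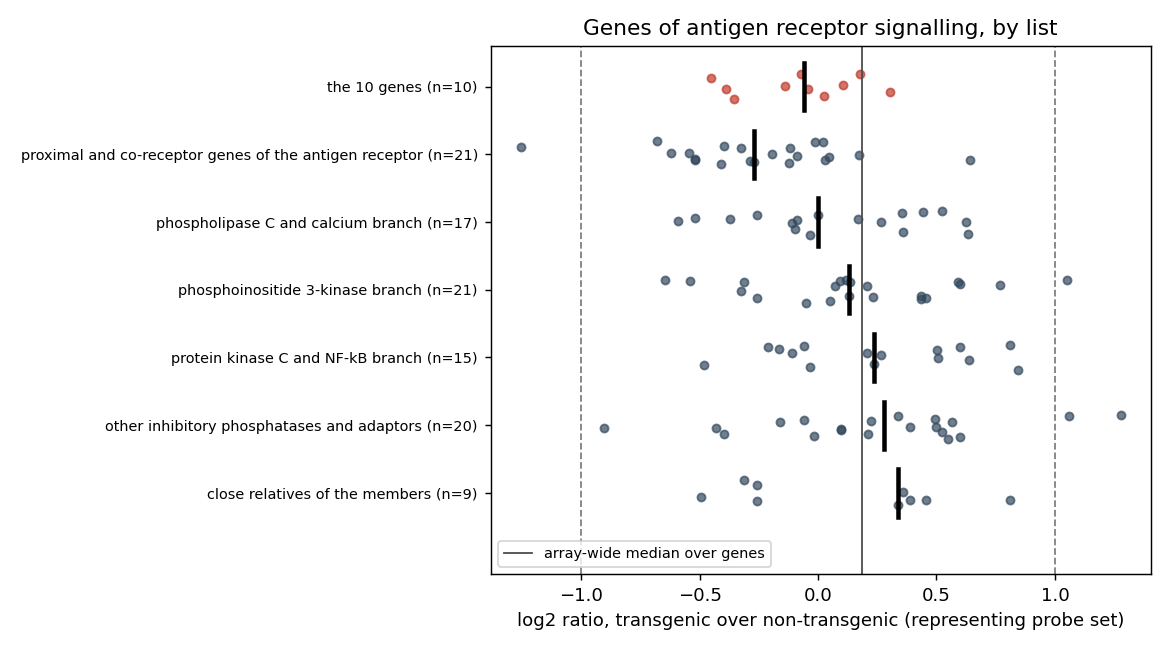
Log2 ratio, transgenic over non-transgenic, of each gene above the filter by its representing probe set, for the 10 genes (red, top) and 6 lists of the same pathway (grey); thick bars are list medians, the thin line is the array-wide median of 0.19 and dashed lines mark 2-fold. List medians run from -0.27 for the proximal genes to 0.34 for the close relatives, with the 10 genes at -0.06.

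Markers of B cells are given for comparison. All 9 B cell markers above the filter lay under the array-wide median, 2 of them 2-fold lower, with a median of -0.46. Their summed intensity was 142898 on the transgenic array against 223176 on the non-transgenic array, and none was at the floor. The 2 past 2-fold were Fcer2a, at 4736 on the transgenic array against 13654 on the non-transgenic array (-1.53), and Cd79a (-1.26). Ms4a1, the gene of CD20, was at 29789 on the transgenic array against 38866 on the non-transgenic array. Of the 9, Cd79a, Cd79b, Cd22, Blnk and Ptprc are also on the proximal list. Natural killer cell markers summed to 7623 on the transgenic array against 4642 on the non-transgenic array, with a median of 0.63 over 8 genes and none at the floor on both arrays. Klre1 (1.29) and Gzma (1.02) were 2-fold higher, Gzma not so in the other 3 scalings (0.79 to 0.85), while Gzmb was at -0.61 and Prf1 at -0.06. T cell markers summed to 1738 on the transgenic array against 1999 on the non-transgenic array, and Zap70 was at 431 against 658. Of the 7 above the filter Cd4 was 2-fold higher, at 155 on the transgenic array against 38.4 on the non-transgenic array. A second probe set of Cd4 was under the floor on both arrays. Thy1 was 2-fold lower, at 101 on the transgenic array against 208 on the non-transgenic array. The part of these markers in the ratios of the 10 genes was not tested.

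Markers of other cells were mixed. Monocyte and macrophage markers summed to 11836 on the transgenic array against 10659 on the non-transgenic array, with a median of -0.06 over 7 genes, none 2-fold apart, and Lyz2 at 5939 against 6172. Of the 7, 4 were under 0. Csf1r, named after its values were seen, was at 4090 on the transgenic array against 2584 on the non-transgenic array (0.66). Neutrophil markers had a median of 0.36 over 6 genes, 3 of them under 0. Mpo was 2-fold higher (1.06, and 0.90 as deposited), at 106 on the transgenic array against 50.7 on the non-transgenic array. Camp (0.98) and Ltf (0.77) were also above 0, while S100a8 (-0.17), S100a9 (-0.04) and Csf3r (-0.39) were under it. The neutrophil list summed to 8666 on the transgenic array against 9115 on the non-transgenic array. Most of it came from S100a8, at 3913 against 4393, and S100a9, at 3604 against 3704. Dendritic cell markers had a median of 0.22 over 6 genes. Of these, Batf3 was 2-fold lower (-1.36), at 69.8 on the transgenic array against 179 on the non-transgenic array. The dendritic cell list summed to 2859 on the transgenic array against 2701 on the non-transgenic array, with Siglech at 830 against 882. Plasma cell markers summed to 49666 on the transgenic array against 50070 on the non-transgenic array, with a median of -0.08 over 7 genes, none 2-fold apart, and Jchain at 18279 against 23590. Platelet markers summed to 984 on the transgenic array against 876 on the non-transgenic array, with a median of 0.42 over 4 genes, none 2-fold apart, and Pf4 at 345 against 235. No erythroid marker lay above the filter, and Hba-a1 and Alas2 were at the floor on both arrays.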

How the data were processed

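RNA of B220-positive B cells was hybridised to Affymetrix mouse arrays, 1 for each group. The deposited table holds an intensity on a linear scale for every probe set, as processed by the authors; the software and scaling are not given in the sources used here. After trimming 2% at each end both arrays had a mean of 500 in the deposited values. The 64 control probe sets were set aside. Of 45037 others, 34945 carry 1 gene symbol, 932 several and 9160 none. All 23 probe sets of the 10 genes kept their symbol in RefSeq genes of GRCm38.p6.

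Each array was scaled to the pooled median (factors 1.06 transgenic, 0.947 non-transgenic), floored at 25.1 and filtered at 98.8 on its higher value, and called at 2-fold. A single array in each group allows no test and limits the precision. Named genes were all members, for each pathway list at most 4 genes past 2-fold (failing that, the 2 with the highest mean level), and the highest gene of each marker list. Other genes of the marker and pathway lists were named outside this rule, with their values known. The members and lists were chosen with earlier results of these data known, and 1 pathway list is not reported here. Steps were tested on simulated data. Alternatives were no scaling, quantile normalization, loess (span 0.3) and changes of filter, floor, fold threshold and probe set rule. Python 3.11.15, numpy 2.4.6, pandas 2.3.3, statsmodels 0.14.6 and matplotlib 3.10.9 were used.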

Additional observations from a re-analysis of the deposited data

How the results depend on the processing

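No probe set of the 10 genes was 2-fold higher under any alternative run. The number 2-fold lower, 0 of 20 after median alignment, was 2 as deposited (Pik3cd 1422992_s_at and Vav2 1421272_at), 1 after quantile normalization and 1 after loess (Pik3cd 1422992_s_at), 1 with a filter at the 25th percentile (Vav2 1435065_x_at, of 23) and 3 at a 1.5-fold threshold. The median log2 ratio of -0.24 was -0.40 as deposited, -0.35 after quantile normalization, -0.35 after loess, -0.36 with the filter at the 25th percentile and -0.14 with the filter at the 75th. It moved by less than 0.1 with other floors, with both values above the filter and without probe sets of marked names. Changes of filter or floor could hardly move the ratios of the 10 genes, so only other scalings and probe set rules count here. Under those, Btk, Plcg2, Vav2, Prkcb, Ptpn6 and Bank1 stayed under 0 and Vav1 above 0. The 3 other scalings lowered the representing ratios of all 10 genes. A ratio already under 0 could therefore only stay there, so the scalings are no check of that sign. Without probe sets of marked names Vav1 was at 0.02, under the median over genes of 0.19. Btk, Plcg2 and Bank1 have 1 probe set each, so for them only the scalings could differ. Pik3cd, at 0.03 after median alignment, was at -0.14 as deposited, -0.18 after quantile normalization and -0.19 after loess. By the median of all its probe sets Pik3cd was at -0.61, and by their mean intensity at -0.26. Inpp5d was under 0 in the same scalings and by the median of its probe sets (-0.13), but at 0.003 by their mean intensity. Pik3ap1 was under 0 only by the median of its probe sets (-0.16). No paired analysis was possible because each group is 1 array. Without detection calls, the signal over background of the dim probe sets is not known.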
